A study of Homo sapiens with 48 samples.

Results

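The NuRD complex is a chromatin remodeller that joins an ATP-driven motor, histone deacetylases and methyl-CpG-binding proteins in 1 assembly. The set described here holds 10 of its subunit genes, taken by name from the 19847 genes of the deposited expression table: CHD4, CHD3, HDAC1, HDAC2, MTA1, MTA2, MTA3, MBD2, MBD3 and GATAD2A. It also holds the 403 alternative splicing events that the inclusion table assigns to these genes, of 363278 events in all, apart from the 84-nt CHD4 intron, which is not analysed here. All 10 genes passed the filter on low counts, and 61 of the 403 events passed the filters on coverage and variation.

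The RNA came from IMR90 ER:RAS cells, human lung fibroblasts that carry oncogenic HRAS fused to the oestrogen receptor, so that 4-hydroxytamoxifen (4OHT) switches the oncogene on and the cells enter senescence, whereas cells given DMSO are not induced. There were 48 libraries in 6 groups of 8, named DMSO siNT, 4OHT siNT, DMSO siSF3B1, 4OHT siSF3B1, DMSO siRBM39 and 4OHT siRBM39 after the treatment and the transfected siRNA, where siNT is non-targeting. Each group joined 2 siRNA sequences (siNT1 and siNT2, siSF3B1-13 and siSF3B1-16, siRBM39-06 and siRBM39-08) with 4 replicates of each, transfected after 6 days of DMSO or 4OHT and kept for 2 more days in 0.5% serum. SF3B1 is the core protein of the U2 snRNP that recognises the branch point, and RBM39 is an RNA-binding splicing factor related to the U2AF subunits. All cells carried the same fusion, so the effects of 4OHT itself and of the induced oncogene cannot be told apart. Nothing in the labels says whether replicates were separate cultures, so p-values measure the spread between these libraries. The tests took the 8 libraries of a group as independent, although they came from 2 siRNA sequences. The p-values are therefore not those of a test with the siRNA sequence as the unit.

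In NuRD, CHD4 or its paralogue CHD3 slides nucleosomes, HDAC1 and HDAC2 remove acetyl groups from histone tails, and an MTA protein forms the scaffold that holds the deacetylases and the RBBP histone-binding proteins. MBD2 and MBD3 occupy the same place in alternative forms of the complex, MBD2 binding methylated CpG and MBD3 binding it weakly or not at all, and GATAD2A or GATAD2B bridges the MBD protein to the remodeller. The complex is known as a repressor that also acts in DNA repair and in chromatin assembly during replication. HDAC1 and HDAC2 further serve the Sin3, CoREST and other corepressor complexes.

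Depth was 31467221 to 52734636 counts on genes per library. All 10 fibroblast markers passed the filter on low counts, while none of the 5 epithelial, 3 endothelial and 4 leukocyte markers in the table did. Of the fibroblast genes 8 fell in 4OHT siNT against DMSO siNT (39.1% of all genes tested), DCN by 5.05 and COL1A2 by 3.39 on the log2 scale. The targeted transcripts fell in their own knockdown, SF3B1 from a mean of 358.6 to 32.8 CPM (counts scaled to library size) in DMSO and from 328.0 to 27.3 CPM in 4OHT, and RBM39 from 170.3 to 27.4 CPM and from 120.2 to 16.3 CPM. 1 library stood apart: in 4OHT siRBM39-08 replicate 4 the epithelial markers summed to 60.9 CPM, against 3.69 to 6.36 CPM in 4OHT siNT. Several results of 4OHT siRBM39 are given with and without it, but not all of them.

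The exons and introns on which the splicing results turn are shown first. They are printed 5′ to 3′ on the strand of the gene from the GRCh37 genome, and exon and intron numbers follow the named GENCODE transcript. For 4 exons that were skipped more often after siSF3B1, the last 40 bases of the upstream intron stand in lower case and the exon in capitals. These are exon 10 of MTA2-201 at chr11:62363930-62364044, exon 5 of MTA2-201 at chr11:62365799-62365902, exon 10 of GATAD2A-213 at chr19:19612738-19612852 and exon 23 of CHD4-206 at chr12:6697464-6697628, where the coordinates span the printed bases.
MTA2 exon 10 (minus strand): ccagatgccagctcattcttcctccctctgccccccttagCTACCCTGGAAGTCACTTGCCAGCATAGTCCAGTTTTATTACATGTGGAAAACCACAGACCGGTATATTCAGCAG
MTA2 exon 5 (minus strand): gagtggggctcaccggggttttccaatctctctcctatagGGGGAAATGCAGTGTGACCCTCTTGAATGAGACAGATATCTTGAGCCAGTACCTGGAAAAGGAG
GATAD2A exon 10 (plus strand): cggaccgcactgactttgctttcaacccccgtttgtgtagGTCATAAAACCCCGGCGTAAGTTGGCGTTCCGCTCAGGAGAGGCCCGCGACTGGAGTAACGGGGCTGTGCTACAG
CHD4 exon 23 (minus strand): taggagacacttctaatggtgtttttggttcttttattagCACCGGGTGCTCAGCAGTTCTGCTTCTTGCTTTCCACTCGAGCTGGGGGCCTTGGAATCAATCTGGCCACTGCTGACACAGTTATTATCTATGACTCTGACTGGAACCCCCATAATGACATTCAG
All 4 upstream introns end in AG. In the 20 bases before that AG, the stretch where the U2AF proteins are known to bind, 19 were pyrimidines for MTA2 exon 10, 17 for MTA2 exon 5, 15 for GATAD2A exon 10 and 15 for CHD4 exon 23.

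For 5 introns whose PSI (percent spliced in, here the share of junction reads that retain the intron) was higher after a knockdown, the capitals mark the last 22 bases, which are the 3′ splice site. MTA1 intron 11 (MTA1-201, chr14:105929596-105929829), HDAC1 intron 8 (HDAC1-201, chr1:32796288-32796368) and MTA2 intron 5 (MTA2-201, chr11:62365614-62365798) are shown whole. Of the longer HDAC1 intron 7 and CHD4 intron 25 only the last 40 bases are shown, at chr1:32796139-32796178 and chr12:6692545-6692584.
MTA1 intron 11 (plus strand): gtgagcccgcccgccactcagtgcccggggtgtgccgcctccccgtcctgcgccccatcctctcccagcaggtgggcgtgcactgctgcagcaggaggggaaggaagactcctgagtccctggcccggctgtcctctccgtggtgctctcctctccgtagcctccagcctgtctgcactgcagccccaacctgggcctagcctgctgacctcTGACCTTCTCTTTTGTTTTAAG
HDAC1 intron 8 (plus strand): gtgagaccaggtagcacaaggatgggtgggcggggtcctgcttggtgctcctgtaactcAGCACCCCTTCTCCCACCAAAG
MTA2 intron 5 (minus strand): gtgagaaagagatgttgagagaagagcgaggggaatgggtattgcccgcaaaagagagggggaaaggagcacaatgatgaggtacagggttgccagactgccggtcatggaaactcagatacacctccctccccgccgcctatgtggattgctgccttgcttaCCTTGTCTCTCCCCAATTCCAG
HDAC1 intron 7, end (plus strand): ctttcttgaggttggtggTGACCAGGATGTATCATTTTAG
CHD4 intron 25, end (minus strand): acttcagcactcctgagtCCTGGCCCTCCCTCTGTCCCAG
In the 20 bases before the AG, 16 were pyrimidines in MTA1 intron 11, 14 in HDAC1 intron 8, 17 in MTA2 intron 5, 11 in HDAC1 intron 7 and 17 in CHD4 intron 25. HDAC1 intron 7 had the fewest pyrimidines of these 5 introns.

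The levels per length were compared in DMSO siNT, on the scale of cRPKM (reads per length and depth, corrected for mappability). CHD4 was the most abundant member, at 50.1 ± 1.41 cRPKM (SD, n = 8), and its range of 48.03 to 52.04 lay above that of MTA2 (43.8 cRPKM, 40.84 to 45.47), the next in order. HDAC1 (41.6 cRPKM) overlapped MTA2, and MBD3 (38.9 cRPKM) overlapped HDAC1. CHD3 (33.7 cRPKM) and MTA1 (33.5 cRPKM) overlapped each other and lay above GATAD2A (18.3 cRPKM), MTA3 (17.4 cRPKM) and HDAC2 (16.2 cRPKM), each of which overlapped the next. MBD2 was lowest at 7.81 cRPKM, and its range of 7.02 to 9.15 lay below that of HDAC2. In 4OHT siNT the order ran CHD4 (50.3 cRPKM), HDAC1 (47.3), MTA2 (39.6), MBD3 (38.4), MTA1 (30.7), GATAD2A (28.7), HDAC2 (16.3), CHD3 (15.04), MBD2 (8.06) and MTA3 (6.40), in which MTA2 and MBD3 overlapped.

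**Figure D1:**
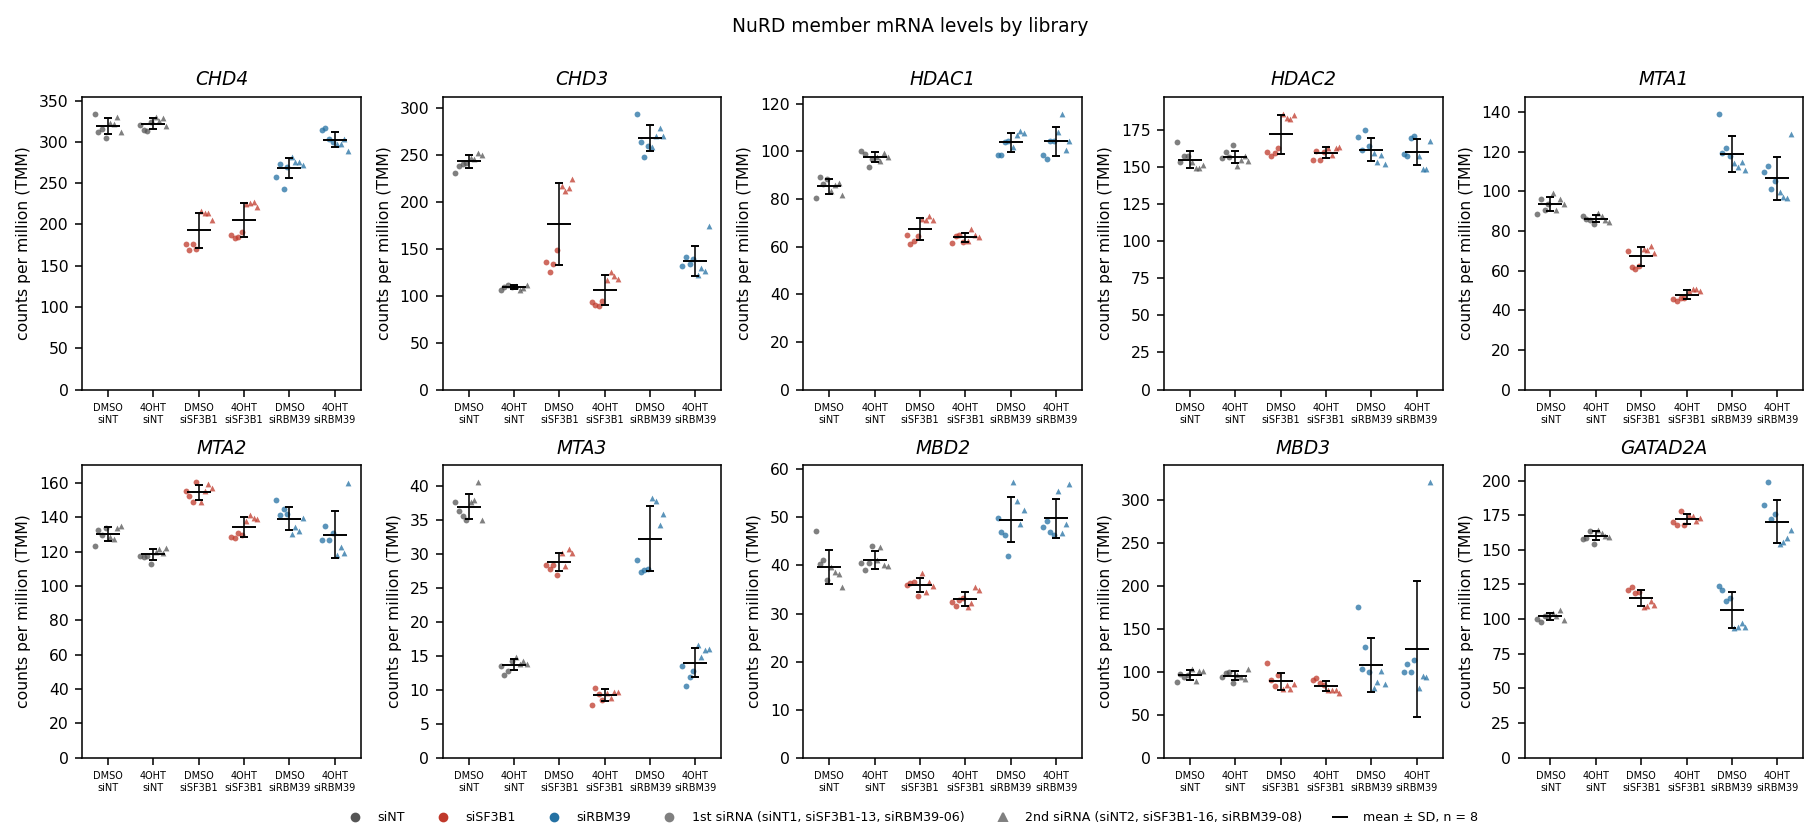
TMM-scaled counts per library size (CPM; vertical axes) of the 10 NuRD genes in 48 libraries, one panel per gene, with the 6 groups on the horizontal axis, one point per library (circles for the first and triangles for the second siRNA) and the group mean ± SD. CHD4 lay between 169.3 and 226.7 CPM in the 16 siSF3B1 libraries and between 304.9 and 334.3 CPM in the 16 siNT libraries.

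CHD4, the main ATPase of NuRD, fell after siSF3B1 in both treatments. In DMSO siNT its lowest, median and highest values were 304.9, 318.8 and 334.3 CPM, and in DMSO siSF3B1 they were 169.3, 191.1 and 216.8 CPM. In 4OHT siNT they were 313.1, 322.7 and 330.4 CPM, and in 4OHT siSF3B1 184.1, 206.4 and 226.7 CPM. No siSF3B1 library reached any siNT library of the same treatment. The log2 fold change was −0.73 in DMSO (SE 0.050, adjusted p = 1.17e-17, edgeR's quasi-likelihood test), which is 39.6% lower, and −0.65 in 4OHT (SE 0.050, adjusted p = 4.72e-16). Both siRNAs lowered it, with log2 fold changes of −0.88 for siSF3B1-13 and −0.60 for siSF3B1-16 in DMSO and of −0.81 and −0.55 in 4OHT. The difference in effect between treatments did not pass its test (0.08, 95% interval −0.06 to 0.22, adjusted p = 0.387). In these bulk libraries, a lower level in each cell and fewer cells with the transcript cannot be told apart.

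After siRBM39, CHD4 changed less. Its values were 242.8, 273.0 and 281.6 CPM in DMSO siRBM39, all below DMSO siNT, and 289.2, 301.8 and 316.7 CPM in 4OHT siRBM39, which overlapped 4OHT siNT. The log2 fold change in DMSO was −0.25 (adjusted p = 4.63e-05) and that in 4OHT −0.09 (95% interval −0.19 to 0.01, adjusted p = 0.124). Induction by 4OHT alone gave a difference of 0.01 with a 95% interval of −0.09 to 0.11 (adjusted p = 0.83).

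CHD3, the other remodeller, was set apart by 4OHT. It measured 231.3, 243.4 and 252.0 CPM in DMSO siNT and 105.7, 109.4 and 111.2 CPM in 4OHT siNT, with no overlap and a log2 fold change of −1.16 (SE 0.093, adjusted p = 1.06e-15). After siSF3B1 it fell in DMSO, to 125.6, 180.2 and 225.0 CPM (log2 fold change −0.46, adjusted p = 1.85e-05). In 4OHT siSF3B1 its values of 88.7, 105.7 and 125.6 CPM enclosed those of 4OHT siNT (−0.04, adjusted p = 0.709). The effect of siSF3B1 differed between treatments (0.42, SE 0.13, adjusted p = 0.00821), a call that was lost without replicate 2 (0.39).

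The 2 siSF3B1 sequences gave CHD3 values that did not overlap, a difference that was not tested. In DMSO its mean was 136.1 CPM with siSF3B1-13 and 217.3 CPM with siSF3B1-16, and the log2 fold changes were −0.83 and −0.17, both past the threshold. In 4OHT the means were 91.7 and 120.4 CPM, with a fall of −0.27 for siSF3B1-13 and 0.11 for siSF3B1-16, which was not called. After siRBM39, CHD3 was 248.1, 266.7 and 294.2 CPM in DMSO (0.14, adjusted p = 0.216) and rose in 4OHT to 121.9, 133.1 and 174.3 CPM (0.33, adjusted p = 0.00201), with no overlap with 4OHT siNT and with the highest value in 4OHT siRBM39-08 replicate 4. Without that library the rise was 0.28 and still called.

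Among the deacetylases, HDAC1 moved in each comparison and in opposite directions after the 2 knockdowns, which share their siNT libraries. It measured 80.3, 86.1 and 89.4 CPM in DMSO siNT and 61.2, 67.9 and 72.8 CPM in DMSO siSF3B1, and 93.49, 97.46 and 99.995 CPM in 4OHT siNT against 61.7, 64.2 and 67.3 CPM in 4OHT siSF3B1. Neither pair of groups overlapped. The log2 fold change was −0.34 in DMSO (adjusted p = 1.75e-11), against −0.61 in 4OHT (adjusted p = 5.8e-20), and the fall was larger in 4OHT (difference −0.27, adjusted p = 3.68e-05).

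After siRBM39, HDAC1 rose to 98.5, 104.0 and 108.6 CPM in DMSO, clear of DMSO siNT (0.28, adjusted p = 7.55e-09). In 4OHT siRBM39 its values were 96.6, 104.3 and 115.8 CPM and overlapped 4OHT siNT, and the rise was smaller (0.10, adjusted p = 0.0225; difference between treatments −0.19, adjusted p = 0.00788). That small rise in 4OHT was not called when any 1 replicate number was left out (0.08 to 0.10) or with siRBM39-06 alone (0.05), and the difference between treatments was not called without replicate 3 (−0.18). HDAC1 also rose from DMSO siNT to 4OHT siNT (0.19, adjusted p = 5.65e-06).

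HDAC2, which shares its role with HDAC1, changed little. Its values were 149.2, 153.4 and 166.6 CPM in DMSO siNT and 157.0, 172.5 and 185.8 CPM in DMSO siSF3B1, and these groups overlapped although the rise was called (0.15, adjusted p = 0.000411, and called for siSF3B1-16 alone but not for siSF3B1-13 alone). The other knockdown differences ranged from 0.03 to 0.06 and were not called, with the widest 95% interval reaching 0.14. HDAC2 ran from 148.4 to 174.6 CPM over both siRBM39 groups.

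The MTA scaffold proteins moved in different directions after siSF3B1. MTA1 was 88.8, 93.8 and 99.2 CPM in DMSO siNT and fell to 60.7, 69.5 and 72.6 CPM in DMSO siSF3B1. It was 83.6, 85.8 and 89.1 CPM in 4OHT siNT and fell to 44.9, 47.9 and 50.9 CPM in 4OHT siSF3B1. The groups were apart in both treatments, by −0.48 on the log2 scale in DMSO (adjusted p = 3e-12) and by −0.85 in 4OHT (SE 0.048, adjusted p = 1.17e-20), and the fall was larger in 4OHT (difference −0.37, adjusted p = 2.21e-05). MTA1 had the largest fall of the 10 genes in 4OHT siSF3B1.

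MTA1 rose after siRBM39 in both treatments. It reached 110.7, 116.5 and 139.3 CPM in DMSO siRBM39 and 96.8, 103.4 and 129.2 CPM in 4OHT siRBM39, above all siNT libraries of the same treatment, with log2 fold changes of 0.34 and 0.31 (adjusted p = 6.21e-08 and 4.98e-07). Both siRBM39 sequences gave a called rise in each treatment. On induction MTA1 had a log2 fold change of −0.12 (adjusted p = 0.0214), which was not called without replicate 1, 2 or 3 in turn.

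MTA2 rose after siSF3B1, unlike MTA1. It was 123.0, 130.9 and 134.8 CPM in DMSO siNT and 149.0, 155.2 and 160.6 CPM in DMSO siSF3B1. In 4OHT it was 112.6, 118.3 and 122.4 CPM in siNT and 127.8, 134.4 and 141.4 CPM in siSF3B1. The groups did not overlap, and the log2 fold changes were 0.25 and 0.18 (adjusted p = 4.99e-07 and 7.85e-05). The rises after siRBM39 were 0.10 in DMSO (adjusted p = 0.048), against 0.13 in 4OHT (adjusted p = 0.00454), with overlap in both, and the highest 4OHT siRBM39 value, 160.2 CPM, was again siRBM39-08 replicate 4. The rise in DMSO was not called without replicate 1, 2 or 3 in turn (0.07 to 0.10), and that in 4OHT was 0.08 and called without the high library but 0.07 and not called without replicate 4 of all groups. MTA2 fell on induction (−0.14, adjusted p = 0.00195).

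MTA3, the least abundant of the 3 scaffolds, fell most on induction. It measured 34.97, 36.92 and 40.55 CPM in DMSO siNT and 12.2, 13.8 and 14.8 CPM in 4OHT siNT (log2 fold change −1.43, SE 0.075, adjusted p = 1.61e-22). After siSF3B1 it fell in both treatments, to 26.9, 28.3 and 30.7 CPM in DMSO (−0.36, adjusted p = 2.66e-05) and to 7.73, 9.45 and 10.3 CPM in 4OHT (−0.57, adjusted p = 5.5e-09). In both treatments the groups lay apart.

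After siRBM39 the 2 sequences gave different MTA3 values, again without a test of that difference. In DMSO its mean was 27.9 CPM with siRBM39-06 and 36.5 CPM with siRBM39-08, with log2 fold changes of −0.41 (called) and −0.01 (not called), and the pooled value was −0.20 (adjusted p = 0.0234), not called without replicate 1, 2 or 3 in turn (−0.21 to −0.16). In 4OHT the means were 12.2 and 15.8 CPM and the log2 fold changes −0.17 and 0.18, both called and of opposite sign, while the pooled value was 0.03 (adjusted p = 0.762).

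Of the methyl-CpG-binding subunits, MBD2 fell after siSF3B1 and rose after siRBM39. It was 35.5, 39.2 and 47.1 CPM in DMSO siNT and 39.1, 40.5 and 44.1 CPM in 4OHT siNT, against 33.7, 36.1 and 38.4 CPM in DMSO siSF3B1 and 31.4, 32.6 and 35.6 CPM in 4OHT siSF3B1. The log2 fold change was −0.14 in DMSO (adjusted p = 0.0141), with overlap and no call without replicate 1 (−0.12) or 2 (−0.14), and −0.32 in 4OHT (adjusted p = 4.93e-07), without overlap. After siRBM39 it was 41.95, 49.27 and 57.38 CPM in DMSO (0.32, adjusted p = 1.33e-06) and 46.2, 48.3 and 57.0 CPM in 4OHT (0.28, adjusted p = 1.38e-05), where the groups lay apart in 4OHT only.

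MBD3 had the widest spread. Its values were 88.6, 96.9 and 103.8 CPM in DMSO siNT, 79.8, 85.3 and 109.8 CPM in DMSO siSF3B1 and 76.0, 82.1 and 93.0 CPM in 4OHT siSF3B1, and neither siSF3B1 difference was called (−0.12, adjusted p = 0.522, and −0.20, adjusted p = 0.268). In 4OHT siRBM39 it ran from 81.3 to 321.1 CPM with a median of 99.7, close to the 95.6 CPM of 4OHT siNT. The rise of 0.40 (SE 0.16, adjusted p = 0.0324) rested on 4OHT siRBM39-08 replicate 4, the library with 60.9 CPM of epithelial markers, and was 0.05 and not called without it. The part of that library's other transcripts in the MBD3 value was not tested.

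GATAD2A, which links the MBD and CHD proteins, rose on induction and little otherwise. It was 98.2, 101.9 and 106.4 CPM in DMSO siNT and 154.5, 159.6 and 164.5 CPM in 4OHT siNT, with no overlap (log2 fold change 0.65, SE 0.050, adjusted p = 1.83e-16). After siSF3B1 it was 108.6, 115.8 and 122.8 CPM in DMSO (0.18, adjusted p = 0.00123) and 167.6, 172.2 and 178.3 CPM in 4OHT (0.11, adjusted p = 0.0483), above the siNT libraries in both treatments. The call in 4OHT was lost when any 1 replicate number was left out. After siRBM39 it was 93.4, 105.1 and 123.6 CPM in DMSO and 154.0, 168.4 and 199.1 CPM in 4OHT, not called in either (0.06, adjusted p = 0.306, and 0.09, adjusted p = 0.124). In DMSO the 2 sequences taken alone gave called changes of opposite sign, 0.21 for siRBM39-06 and −0.10 for siRBM39-08.

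**Figure D2:**
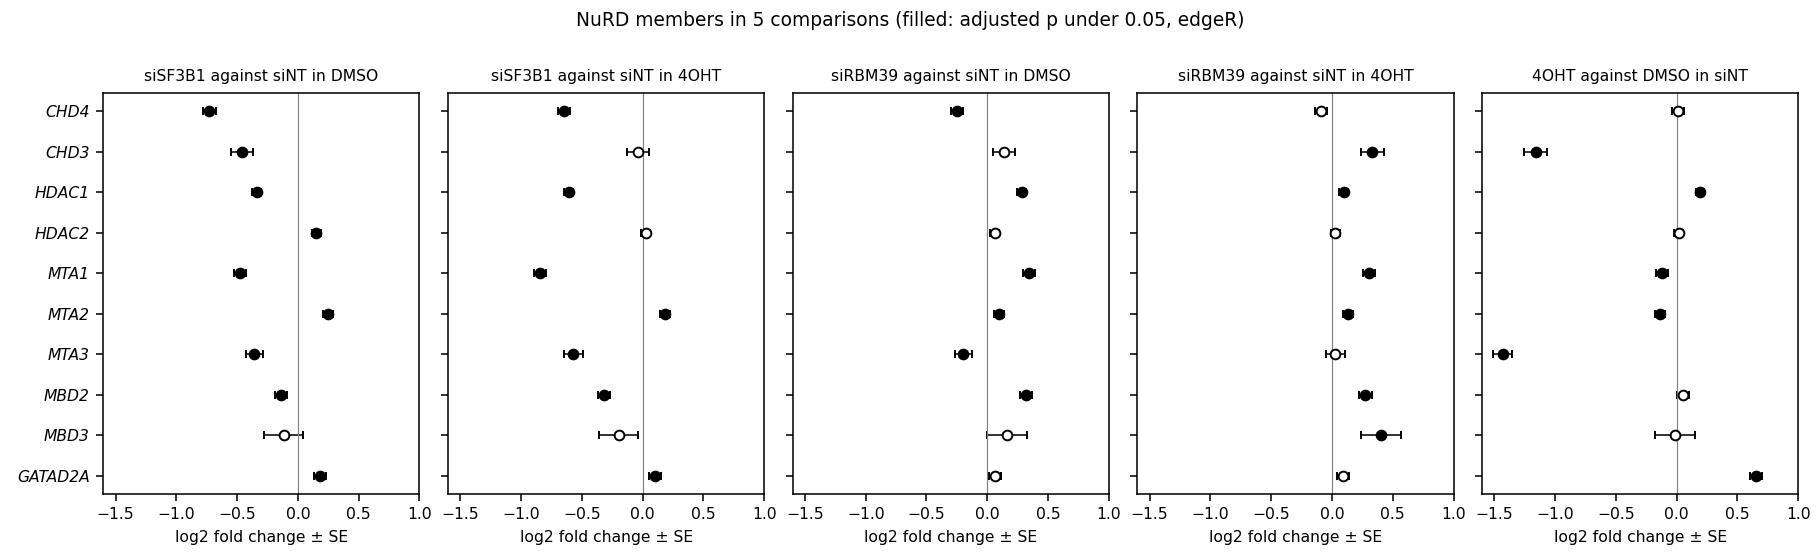
Log2 fold changes of the 10 NuRD genes (genes on the vertical axis, log2 fold change ± SE on the horizontal axes) in the 5 pairwise comparisons, one panel each, filled where the adjusted p was under 0.05 by edgeR. MTA1 and HDAC1 lay below 0 after siSF3B1 and above 0 after siRBM39, and MTA3 and CHD3 had the largest falls from DMSO to 4OHT.

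Counted over the set, 9 of 10 members were called after siSF3B1 in DMSO, 3 higher and 6 lower, against 72.7% of the 9991 genes tested, and 7 in 4OHT, 2 higher and 5 lower, against 77% of genes. After siRBM39, 6 were called in DMSO, 4 higher and 2 lower, against 46.1% of genes, and 6 in 4OHT, all higher, against 56.4%. The 6 became 5, without MBD3, when 4OHT siRBM39-08 replicate 4 was left out, where 6013 of 9991 genes were called. Without replicate 4 of all groups the 6 became 3, where 5399 of 9991 genes were called. From DMSO to 4OHT, 6 were called, 2 higher and 4 lower, against 78.1%. The set is small, and nothing particular to it is read from these counts. By direction, 36.5% of genes were called higher and 36.2% lower after siSF3B1 in DMSO and 39.4% and 37.6% in 4OHT, 23.9% and 22.2% after siRBM39 in DMSO and 32.2% and 24.3% in 4OHT, and 39% and 39.1% on induction. No member changed by as much as 2-fold after a knockdown (7.59%, 11.6%, 1.29% and 2.29% of genes in the order above), nor did any difference in effect between treatments (2.23% and 0.43%), while CHD3 and MTA3 did on induction (18.5%). The median log2 fold change of the members was −0.24 and −0.26 after siSF3B1, 0.12 and 0.11 after siRBM39 and 0.00 on induction, where the median of all genes lay between 0.00 and 0.05. Groups did not overlap for 7 members in each treatment after siSF3B1 (54.9% and 68.9% of genes), for 3 in each after siRBM39 (20.5% and 25.1%), and for 5 on induction (71.4%). The effect of siSF3B1 differed between treatments for 3 members, CHD3, HDAC1 and MTA1 (37.8% of genes), and that of siRBM39 for HDAC1 (14.1%). Without 4OHT siRBM39-08 replicate 4 the siSF3B1 effect differed for 5 members, where 4692 of 9991 genes were called.

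The paralogues that share a place in the complex can be set against each other per length, as the share of 1 gene in the summed cRPKM of its family, which is a description without a test. CHD4 made up 59.8% of CHD3 plus CHD4 in DMSO siNT (58.5% to 62.1% over 8 libraries) and 77.0% in 4OHT siNT (76.2% to 77.6%). After siSF3B1 the share was 55.8% in DMSO, overlapping the controls, and 68.8% in 4OHT (67.1% to 70.3%), below them. After siRBM39 it was 53.2% in DMSO (49.8% to 55.2%) and 71.5% in 4OHT (65.2% to 73.5%), below the controls in both. HDAC1 made up 71.9% and 74.3% of HDAC1 plus HDAC2 in the siNT groups and 64.6% and 65.1% in the siSF3B1 groups, which did not overlap the controls.

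Among the scaffolds the shares shifted, while the mean share of MTA2 was the highest and that of MTA3 the lowest in all 6 groups. In DMSO siNT, MTA2 held 46.3%, MTA1 35.4% and MTA3 18.3% of the MTA sum, and in 4OHT siSF3B1 MTA2 held 67.8%, MTA1 25.7% and MTA3 6.498%. Induction alone gave 51.66%, 40.01% and 8.33%. After siRBM39 MTA1 reached 40.7% in DMSO and 43.1% in 4OHT. GATAD2A held 75.3% of GATAD2A plus GATAD2B in DMSO siNT and 89.9% in 4OHT siNT, with 75.7% and 88.0% after siSF3B1, whereas MBD3 stayed between group means of 80.9% and 83.7% of MBD2 plus MBD3 in all 6 groups.

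**Figure D3:**
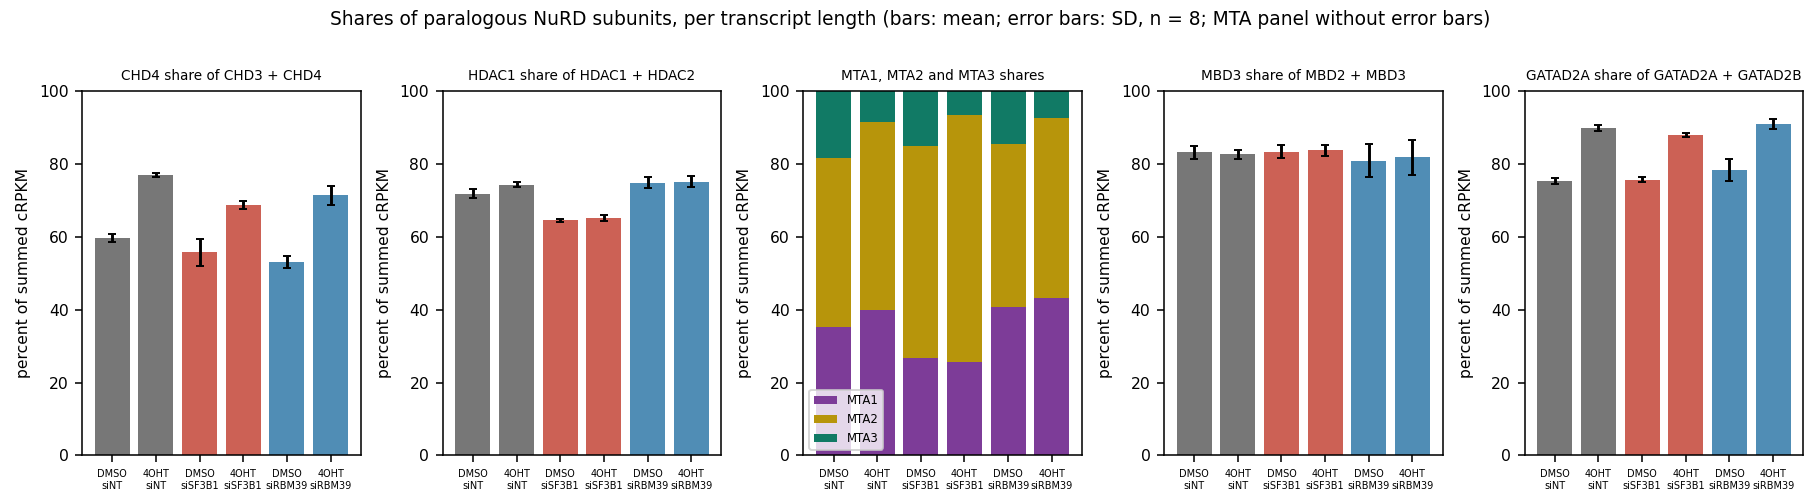
Share of a gene in the summed cRPKM of its paralogues (vertical axes, percent) in the 6 groups (horizontal axes), drawn as bars of the group mean with SD as error bars (n = 8), and stacked without error bars for MTA1, MTA2 and MTA3. MTA2 rose from a mean of 46.3% in DMSO siNT to 67.8% in 4OHT siSF3B1 while MTA3 fell from 18.3% to 6.498%.

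The rest of the complex and its relatives were read from lists, whose counts stand against the shares of all genes called higher and lower given above, and nothing particular to a list is read from them. Of 6 other NuRD subunits, 5 were tested and CHD5, a neuronal remodeller, was not, at 0.22 CPM in DMSO siNT. On induction 4 of the 5 fell and 1 rose, where 39.1% and 39% of all genes did so. The falls were GATAD2B by −0.89 (adjusted p = 2.17e-20), the histone-binding RBBP7 by −0.41 (adjusted p = 3.71e-14) and RBBP4 by −0.34 (adjusted p = 7.81e-05), and CDK2AP1 by −0.26 (adjusted p = 5.02e-05). CDK2AP2 rose by 0.32 (adjusted p = 0.00665). After siSF3B1 2 rose and 2 fell in each treatment, where 36.5% and 36.2% of all genes in DMSO and 39.4% and 37.6% in 4OHT did so, with CDK2AP2 at −0.62 in DMSO (adjusted p = 2.18e-06) and GATAD2B at 0.38 in 4OHT (adjusted p = 1.18e-08). After siRBM39 1 rose and 1 fell in DMSO (23.9% and 22.2% of all genes). These were CDK2AP1 by 0.20 (adjusted p = 0.00262) and GATAD2B by −0.20 (adjusted p = 0.00116). In 4OHT 2 rose and 0 fell (32.2% and 24.3% of all genes), CDK2AP1 by 0.30 (adjusted p = 7.01e-06) and RBBP7 by 0.09 (adjusted p = 0.0334).

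Of 7 other CHD remodellers 6 were tested. After siSF3B1 2 were higher and 3 lower in DMSO (36.5% and 36.2% of all genes). In 4OHT 3 were higher and 3 lower (39.4% and 37.6% of all genes). CHD1L, a remodeller recruited by poly(ADP-ribose), fell after both knockdowns, by −1.09 and −1.08 after siSF3B1 and by −0.62 and −0.83 after siRBM39 in DMSO and 4OHT, and CHD8 fell after siSF3B1 by −0.87 and −1.10. Of 22 subunits of other HDAC1/HDAC2 complexes, 10 were higher and 7 lower after siSF3B1 in each treatment, against the same shares of all genes. The Sin3 subunit ARID4A was at −1.31 and −1.56. After siRBM39 in 4OHT 7 were higher and 1 lower (32.2% and 24.3% of all genes), and on induction 4 were higher and 9 lower (39% and 39.1%), with the CoREST protein RCOR2 at −2.07. The median of that list lay between −0.08 and 0.07 in all 5 comparisons.

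Of 15 NuRD-linked proteins, 14 were in the table and 10 were tested. On induction 5 rose and 4 fell (39% and 39.1% of all genes), with ZFPM2, a GATA cofactor that binds NuRD, at −5.23 (adjusted p = 1.72e-32) and TRPS1 at 1.16 (adjusted p = 6.05e-18). Of 15 other deacetylases 14 were tested, and 7 rose and 7 fell after siSF3B1 in DMSO (36.5% and 36.2% of all genes). HDAC3, the enzyme of the NCoR and SMRT corepressors, fell after siSF3B1 by −1.29 in DMSO and −1.50 in 4OHT. HDAC9 rose by 1.28 after siSF3B1 in DMSO, and HDAC11 fell by −1.35 in 4OHT. After siRBM39 3 were higher and 4 lower in each treatment (23.9% and 22.2% of all genes in DMSO, 32.2% and 24.3% in 4OHT). HDAC9 rose after siRBM39 by 1.57 in DMSO and 0.63 in 4OHT, and the cytoplasmic HDAC6 fell by −0.78 and −1.09. On induction HDAC9 rose by 2.13 and HDAC11 fell by −1.50.

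The genes whose log2 CPM followed CHD4 most closely over the 48 libraries, of 9991 genes, were SNX14, SMARCA4 and ZBTB8OS, each with Pearson's r of 0.96. Within NuRD, HDAC1 (0.80), MTA1 (0.71) and MBD2 (0.58) came next, CHD3 (0.22), MBD3 (0.20), MTA3 (0.12) and GATAD2A (−0.03) were near 0, and HDAC2 (−0.35) and MTA2 (−0.65) ran the other way. These points share their libraries, their scaling and the group differences described above, so r is given as a description.

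Splicing was read as the percent spliced in (PSI), the share of junction reads that include an exon or retain an intron. Of the 403 events, 377 had a PSI in every library, 212 had at least very low coverage in every library, 78 of these varied by at least 5 points, and 61 were left when introns with uneven reads at their 2 ends were removed. The 61 were 29 cassette exons, 26 introns, 5 alternative acceptors and 1 alternative donor, with 12 each in MTA1 and GATAD2A and none in MTA3, of whose 43 events none had enough reads. An event was called where limma gave an adjusted p under 0.05 and the mean PSI differed by at least 5 points.

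After siSF3B1, 10 of the 61 events were called in DMSO, against 19.8% of all 13839 events tested, and 12 in 4OHT, against 23%. In each treatment 8 were exons, all of them included less, and the others were introns, all with a higher PSI, 2 in DMSO and 4 in 4OHT. Over all genes 25.7% and 28.9% of exons were called lower and 10.8% and 14.6% of introns higher. After siRBM39 1 exon was called in DMSO, included more (5.66% of events; 1.02% of exons higher), and 1 intron in 4OHT, with a higher PSI (6.27% of events; 2% of introns higher). On induction limma called none of the 61 (0.882% of events), with 2 at an unadjusted p under 0.05. It called none for the difference in effect between treatments, where 0.311% of all events were called for siSF3B1 and 0.00723% for siRBM39. At an unadjusted p under 0.05 there were 7 of the 61 for siSF3B1 and 2 for siRBM39. The share of all events at an unadjusted p under 0.05 is not given here, so nothing is read from these numbers.

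MTA2 exon 10, shown above, was the member exon with the largest change in DMSO. It has 75 nt at chr11:62363930-62364004 and its skipping would keep the reading frame, with 643 in place of 668 residues. Its PSI was 100 in all 16 siNT and all 16 siRBM39 libraries, and the lowest, median and highest values were 80.25, 85.67 and 91.43 in DMSO siSF3B1 and 75.97, 88.83 and 94.69 in 4OHT siSF3B1. The mean difference was −14.4 points in DMSO (adjusted p = 6.97e-22), against −12.1 in 4OHT (adjusted p = 1.31e-20). Reads that skipped the exon numbered 161 and 106 over the 8 libraries of each siSF3B1 group and 0 in the 4 other groups.

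MTA2 exon 5, of 64 nt at chr11:62365799-62365862, was also included in all siNT reads. After siSF3B1 its PSI was 78.12, 91.12 and 95.24 in DMSO and 72.5, 87.53 and 93.85 in 4OHT, a difference of −11.0 (adjusted p = 6.53e-16) and −14.2 (adjusted p = 1.44e-17). The form without it reads to a stop after 139 residues, 1357 nt before the last exon junction. MTA2 exon 8, of 100 nt, had a mean of 93.6 in DMSO siSF3B1 and 96.3 in 4OHT siSF3B1, a difference of −6.36 in DMSO (adjusted p = 4.94e-07) and of −3.73 in 4OHT, under the 5 points required. The MTA2 transcript as a whole rose in the same libraries.

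GATAD2A exon 10, of 75 nt at chr19:19612778-19612852, lies in frame, with 609 in place of 634 residues when skipped. Its PSI was 89.83, 98.73 and 100 in DMSO siNT and 79.22, 81.84 and 88.24 in DMSO siSF3B1, and the mean was 99.2 in 4OHT siNT against values of 74.12, 83.31 and 90.91 in 4OHT siSF3B1. The difference was −13.2 (adjusted p = 1.66e-05) and −16.3 (adjusted p = 7.65e-08), the latter the largest of the member exons in 4OHT. In the siRBM39 groups the means were 95.36 and 99.01. GATAD2A exon 5, of 90 nt and also in frame, had means of 91.4 and 89.8 after siSF3B1 against 97.9 and 98.1, a difference of −6.51 (adjusted p = 0.00156) and −8.34 (adjusted p = 3.07e-05).

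CHD4 exon 23, of 125 nt at chr12:6697464-6697588, was at 100 in all 16 siNT libraries. After siSF3B1 it was 82.61, 92.28 and 97.78 in DMSO and 78.57, 94.06 and 97.96 in 4OHT, a difference of −8.30 (adjusted p = 1.69e-09) and −9.71 (adjusted p = 3.59e-10), the latter −6.27 and still called without replicate 2. In DMSO the mean was 87.2 with siSF3B1-13 and 96.2 with siSF3B1-16, and for siSF3B1-16 alone the difference was under 5 points (−3.76). In 4OHT the mean was 89.2 and 91.4. CHD4 levels with the 2 siRNAs were 173.1 and 212.7 CPM in DMSO and 186.9 and 224.8 CPM in 4OHT. A link between skipping and level was not tested. Reads that skipped exon 23 numbered 19 in DMSO siSF3B1 and 21 in 4OHT siSF3B1, over the 8 libraries of each group. Without the exon the reading frame ends after 1115 of 1912 residues, 2248 nt before the last junction. CHD4 intron 16, of 187 nt, was at 0 in DMSO siNT and at 1.45, 5.715 and 8.7 in 4OHT siSF3B1 (difference in 4OHT 5.33, adjusted p = 2.4e-09; in DMSO 4.55, under 5 points), and CHD4 intron 34, of 299 nt, reached a mean of 5.02 in 4OHT siSF3B1 (adjusted p = 7.31e-08). The reads at the first and second end of intron 16 numbered 0 and 22 in DMSO siSF3B1 and 4 and 23 in 4OHT siSF3B1, too uneven to show retention of the whole intron, and those of intron 34 in 4OHT siSF3B1 12 and 11. Both intron differences came under 5 points when 1 replicate number was left out, intron 16 without replicate 4 (4.48) and intron 34 without replicate 3 (4.06).

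In the other members 3 exons were called after siSF3B1. MBD3 exon 5, of 178 nt, fell from a mean of 99.4 to 93.3 in DMSO (−6.12, adjusted p = 1.78e-06) and from 98.3 to 90.6 in 4OHT (−7.64, adjusted p = 5.82e-06), although the MBD3 level did not pass its test. CHD3 exon 26, of 66 nt and in frame, fell from 100 to 91.0 in 4OHT (−9.04, adjusted p = 1.75e-07) and by −4.87 in DMSO, under 5 points. The library 4OHT siSF3B1-13 replicate 1 stood apart at 74.32, and without replicate 1 the difference was −5.76 and still called. Reads that skipped CHD3 exon 26 numbered 14 over the 8 libraries of 4OHT siSF3B1. MTA1 exon 18, of 36 nt and in frame, was at 100 in all siNT and DMSO siSF3B1 libraries and at 96.76 or more in the siRBM39 libraries, whereas in 4OHT siSF3B1 it was 72.29, 96 and 100 (−7.84, adjusted p = 0.000261), with a difference between treatments that was not called (adjusted p = 0.166). Reads that skipped MTA1 exon 18 numbered 8 over the 8 libraries of 4OHT siSF3B1. A partly coding GATAD2A exon of 275 nt was called in DMSO only, at −5.24 (adjusted p = 0.00336) against −1.599 in 4OHT (adjusted p = 0.205), and it was −3.82 without replicate 3.

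**Figure D4:**
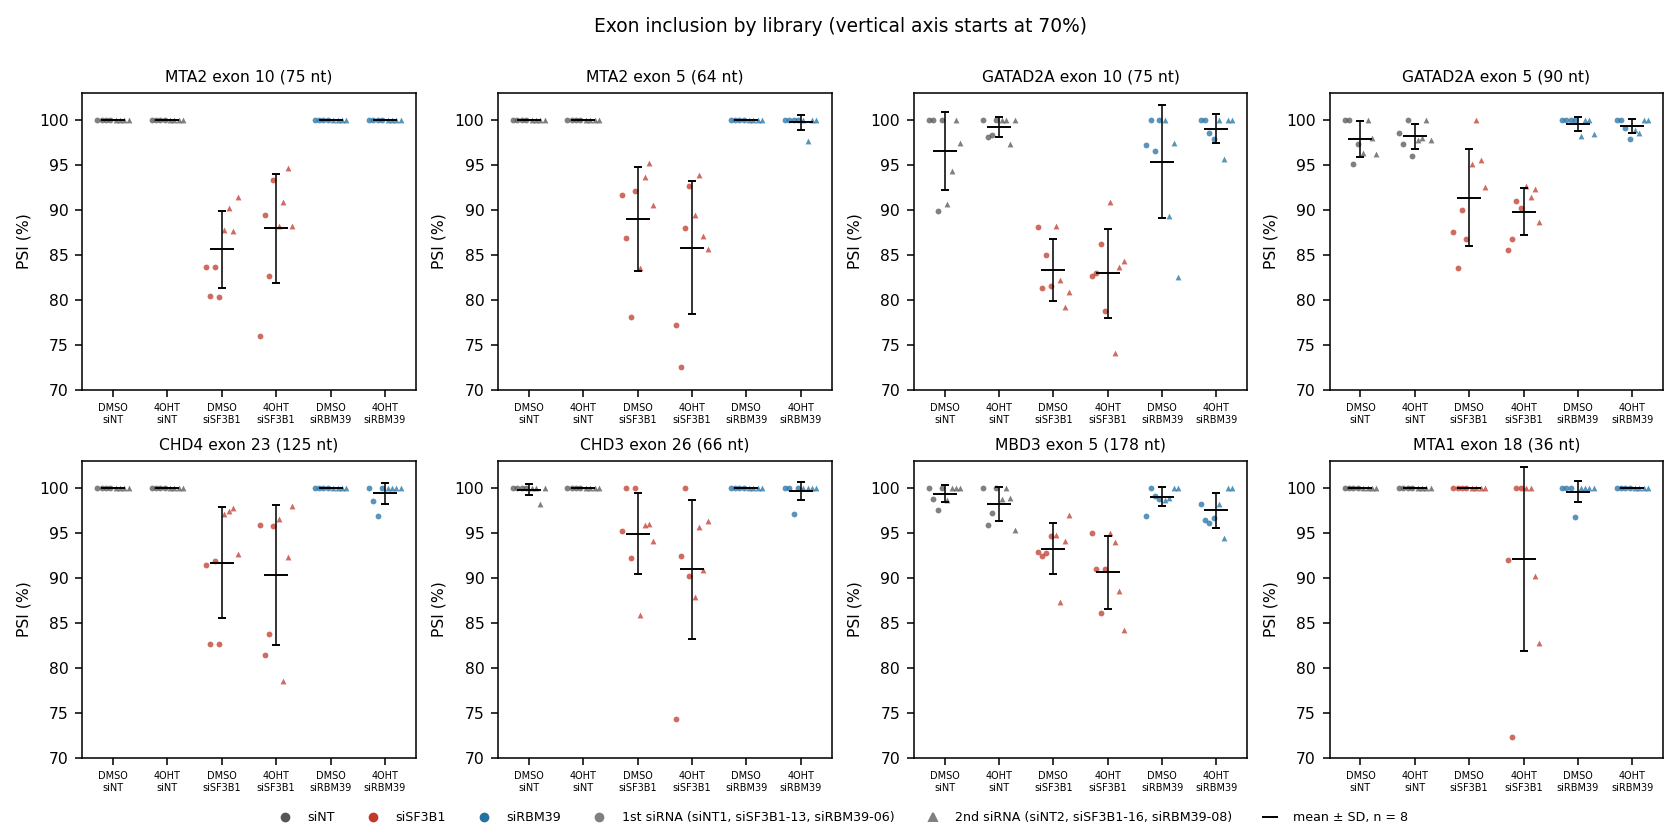
PSI (vertical axes, percent; the axis starts at 70%) of 8 of the 10 member exons called after siSF3B1, in the 6 groups (horizontal axes), with one point per library (circles and triangles for the first and second siRNA) and the group mean ± SD. MTA2 exon 10 was at 100 in all siNT and siRBM39 libraries and between 75.97 and 94.69 in the 16 siSF3B1 libraries.

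The 10 exons called after siSF3B1 in either treatment had a median of 82.5 nt and ran from 36 to 275 nt, 9 lay inside the coding sequence and 5 were a multiple of 3 long, while the 17 matched exons that were tested and not called had a median of 132 nt, with 6 multiples of 3. The median share of pyrimidines in the 20 bases before the AG was 75% in the called and 80% in the other tested exons. These are descriptions of few exons, several of which lie in the same transcript.

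MTA1 intron 11, shown above, was the retained intron with the largest change among those with even reads at both ends. It has 234 nt at chr14:105929596-105929829, and the retained form holds no new stop, with 793 in place of 715 residues. Its PSI had a mean of 1.55 in DMSO siNT and values of 7.27, 15.29 and 23.48 in DMSO siSF3B1 (difference 13.8, adjusted p = 9.52e-11), and a mean of 1.02 in 4OHT siNT against 4.76, 10.47 and 17.54 in 4OHT siSF3B1 (9.41, adjusted p = 1.92e-10). Over 8 libraries the reads at its ends numbered 5 and 14 in DMSO siNT and 64 and 77 in DMSO siSF3B1, while spliced reads numbered 619 and 379. MTA1 as a whole fell in the same libraries. After siRBM39 the means were 3.64 in DMSO and 1.74 in 4OHT.

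HDAC1 intron 8, of 81 nt, had a higher PSI after both knockdowns. Its siNT means were 0.571 in DMSO and 0.598 in 4OHT, against 0, 7.22 and 10.76 in DMSO siSF3B1 and 2.49, 7.175 and 10.12 in 4OHT siSF3B1 (differences 5.67, adjusted p = 1.51e-05, and 5.97, adjusted p = 4.16e-06). The siRBM39 means were 4.57 in DMSO (difference 4.00, under 5 points) and 5.82 in 4OHT (5.22, adjusted p = 0.000153). Each library passed the test of balance, but at few reads: over 8 libraries the reads at the first and second end numbered 7 and 35 in DMSO siSF3B1, 17 and 17 in 4OHT siSF3B1, 7 and 37 in DMSO siRBM39 and 13 and 37 in 4OHT siRBM39, so that retention of the whole intron is not shown where the ends differ. In 4OHT the siRBM39 difference came under 5 points without replicate 1 (4.77), without replicate 4 (4.41) or without the 4OHT siRBM39-08 replicate 4 library alone (4.45), and the siSF3B1 difference did so without replicate 2 (4.83). With siRBM39-06 alone the siRBM39 call in 4OHT was also lost. The retained form ends after 283 of 482 residues.

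The 1 exon called after siRBM39 was also in HDAC1. It has 53 nt at chr1:32793007-32793059 and is exon 6 of the non-coding transcript HDAC1-207, inside intron 5 of the coding one. Its PSI was 0, 0.485 and 2.36 in DMSO siNT and 3.77, 5.995 and 13.79 in DMSO siRBM39, with no overlap (difference 6.17, adjusted p = 8.94e-05). Over 8 libraries the reads at its first and second junction numbered 2 and 6 in DMSO siNT and 17 and 47 in DMSO siRBM39. Reads at the first and second end of intron 5 itself numbered 94 and 29 in DMSO siNT and 151 and 25 in DMSO siRBM39. Whether both junctions of the exon lay in the same transcripts was not tested. The exon was not called with siRBM39-06 alone. In 4OHT the means were 1.36 and 2.65, a difference of 1.29 that was not called (adjusted p = 0.603), and the test of the difference between treatments did not pass (−4.88, adjusted p = 0.794).

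Without the requirement of even reads at both intron ends, 78 member events were tested and 20 were called after siSF3B1 in DMSO (24.8% of events), 24 in 4OHT (28.9%), and 3 after siRBM39 in each treatment (7.47% and 8.13%). Of 43 introns, 12 and 16 were called higher after siSF3B1 in DMSO and 4OHT, against 23.4% and 28.9% of introns, and 2 and 3 after siRBM39, against 6.38% and 6.72%. The introns below were named after their values were seen. Where the ends were uneven, retention of the whole intron is not shown by these reads. The 16 introns called after siSF3B1 had a median of 186 nt, against 648 nt for the 27 that were not called.

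HDAC1 intron 7, of 1417 nt at chr1:32794762-32796178, carried the largest change after siRBM39. Its PSI was 4.69, 16.84 and 22.98 in DMSO siNT and 42.14, 51.81 and 59.43 in DMSO siRBM39 (difference 35.7, adjusted p = 5.18e-11). In 4OHT siNT it was 9.76, 19 and 24.38 and in 4OHT siRBM39 29.17, 39.6 and 48.8 (difference 21.97, adjusted p = 2.37e-06). No siRBM39 library overlapped the controls of its treatment. Over 8 libraries, the reads at its ends numbered 61 and 143 in DMSO siNT and 328 and 592 in DMSO siRBM39, with 525 and 426 spliced reads, and 7 of the 8 DMSO siRBM39 libraries had even ends, so that 1 library kept it out of the stricter set. After siSF3B1 the means were 20.9 in DMSO (adjusted p = 0.0767) and 26.7 in 4OHT (difference 8.77, adjusted p = 0.0101, not called at 5.02 without replicate 3). The retained form ends after 276 of 482 residues, and HDAC1 counts rose in the siRBM39 libraries.

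CHD4 intron 25, of 4005 nt at chr12:6692545-6696549, had the largest difference after siSF3B1 of the introns tested, 17.1 points in DMSO and 32.5 in 4OHT. Its PSI had means of 0.133 and 0.156 in the siNT groups and was 9.68, 15.82 and 27.78 in DMSO siSF3B1 (adjusted p = 9.65e-16) and 24.26, 27.94 and 44.74 in 4OHT siSF3B1 (adjusted p = 1.01e-19). The reads were almost all at 1 end: 11 at the first and 233 at the second junction in 4OHT siSF3B1, with 286 spliced reads and 0 in the body of the intron, and none of the 8 libraries had even ends. With siSF3B1-13 the mean was 40.1 and with siSF3B1-16 25.2 in 4OHT. After siRBM39 the means were 0.865 and 0.743.

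MTA2 had 6 introns called without that requirement in 4OHT siSF3B1. The largest change was in intron 5, shown above, of 185 nt, which follows the skipped exon 5: its means were 6.09 in DMSO siNT and 21.96 in DMSO siSF3B1 (difference 15.9, adjusted p = 1.75e-08) and 6.64 and 30.9 in 4OHT (24.3, adjusted p = 2.32e-11). Its ends were uneven, with 36 and 218 reads in DMSO siSF3B1. It was also called after siRBM39, at 5.87 in DMSO (adjusted p = 0.00607), against 6.78 in 4OHT (adjusted p = 0.00576), but not without replicate 2 in DMSO (4.97) or without replicate 1 (5.75) or 3 (6.10) in 4OHT. Intron 4, which precedes that exon, differed by 13.996 and 18.4 after siSF3B1, and introns 8, 9, 10 and 12 by 8.57, 11.9, 9.88 and 9.59 in 4OHT. In 4OHT siSF3B1 the reads at the first and second end numbered 232 and 23 in intron 4 and 108 and 143 in intron 9. They numbered 62 and 31 in intron 8, 53 and 263 in intron 10 and 13 and 82 in intron 12. Ends were even in all 8 of these libraries for intron 9 and in 0 for intron 4.

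In MTA1, introns 20 (72 nt, chr14:105936330-105936401) and 5 (76 nt) joined intron 11. Intron 20 had means of 5.46 and 5.06 in the siNT groups and 17.7 and 18.3 in the siSF3B1 groups (differences 12.2, adjusted p = 1.29e-07, and 13.2, adjusted p = 9.58e-09), and 7 of 8 libraries in each siSF3B1 group had even ends. Intron 5 differed by 10.6 in DMSO and 7.80 in 4OHT, the latter not called without replicate 4 (5.52). HDAC1 introns 5 and 11 differed by 6.16 and 5.63 in DMSO and by 6.92 and 7.41 in 4OHT. In DMSO neither was called without replicate 1 (4.54 and 4.21) and intron 5 was not called without replicate 4 (4.54), and in 4OHT intron 5 was not called without replicate 2, 3 or 4 in turn (5.30 to 6.09). Reads at the first and second end of HDAC1 intron 5 numbered 96 and 21 in DMSO siSF3B1 and 105 and 33 in 4OHT siSF3B1. Those of HDAC1 intron 11 numbered 64 and 7 and 74 and 12. Retention of these 2 whole introns is not shown by such uneven reads.

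**Figure D5:**
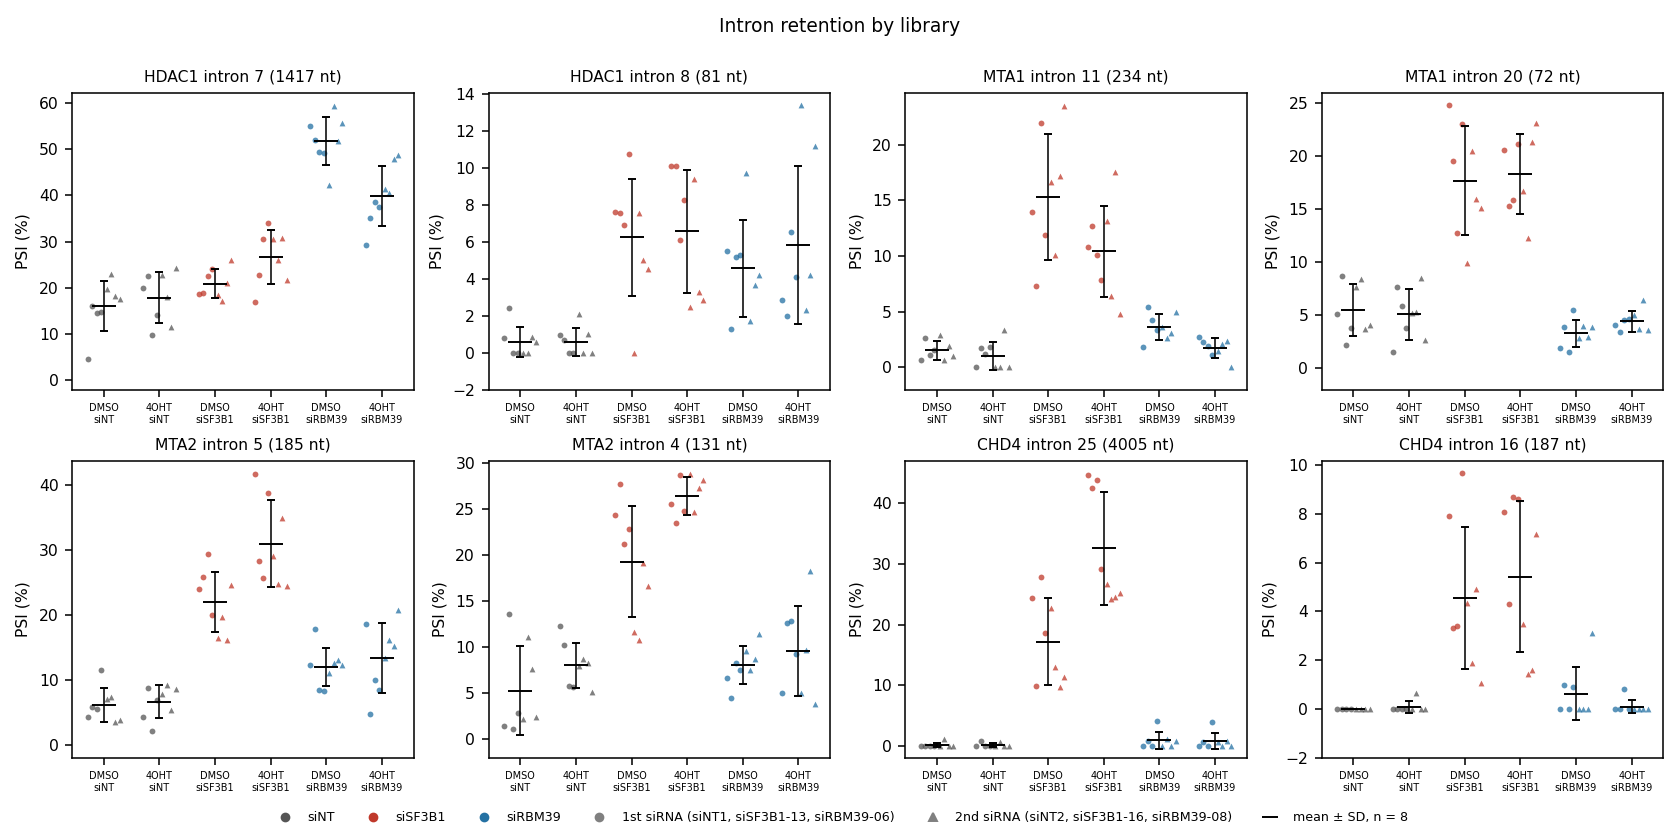
PSI (vertical axes, percent) of 8 member introns in the 6 groups (horizontal axes), with one point per library (circles and triangles for the first and second siRNA) and the group mean ± SD. HDAC1 intron 7 was highest in DMSO siRBM39 (42.14 to 59.43) and CHD4 intron 25 in 4OHT siSF3B1 (24.26 to 44.74).

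In HDAC2 and MBD2 no event was called, and the differences that passed limma's p stayed under 5 points. HDAC2 exon 5, of 139 nt, had means of 99.6 and 97.2 in the siSF3B1 groups, a difference of −0.41 in DMSO (adjusted p = 0.206), against −2.75 in 4OHT (adjusted p = 2.65e-07). MBD2 exon 4, of 91 nt, had means of 96.4 and 97.9, a difference of −3.59 in DMSO (adjusted p = 0.00184), against −1.71 in 4OHT (adjusted p = 0.319).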

How the data were processed

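Poly(A) RNA was sequenced from 48 libraries of IMR90 ER:RAS cells. The authors aligned single-end reads with vast-tools version 2 and deposited raw counts per gene, which carry no normalisation, and cRPKM, an RPKM corrected for mappability. They also deposited PSI, in percent, for each event in each library. Beside it stand a score of coverage and, where the event is an intron, the p-value of a test that the reads at both ends are balanced. A deposited table of normalised CPM was not used. The processing notes name hg19, edgeR and limma, but the event coordinates match GRCh38, so events were matched to exons and introns of the GENCODE annotation through its recorded GRCh38 positions, and GRCh37 coordinates and sequence are printed. Of the members' events, 167 of 176 exons and 171 of 171 introns matched.

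Groups followed the sample titles. 4 libraries titled 4OHT siNT2 also carry the tag siNT1 and were taken as siNT2. Counts were analysed with edgeR 4.0.16 in R 4.3.3 (TMM scaling, glmQLFit and glmQLFTest, 1 mean per group) over the 9991 genes whose counts summed to 10000 or more, with p-values adjusted over all of them by Benjamini-Hochberg and a threshold of 0.05. PSI was tested with limma 3.58.1 on the logit of 0.01 plus 0.98 of its fraction over 13839 events with at least VLOW coverage in every library, a range of at least 5 points and, if introns, no library with a balance p under 0.05. Single PSI values can rest on few reads, and the reads are printed for some of the events only. Other work used Python 3.11.15, pandas 2.3.3, numpy 2.4.6 and matplotlib 3.10.9.

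The members, lists and tests were chosen with earlier results of these data known. All members are named. From other lists, the subunits of NuRD and at most 2 called genes with the largest change per list and comparison are named. For each member, up to 3 called events with the largest difference are named, and introns called without the balance filter were named after their values were seen. Alternatives were limma-voom, DESeq2 1.42.0, its size factors in edgeR, other count filters, single siRNAs, the groups compared alone, a replicate block, each replicate number left out, other event filters and, after seeing the data, the last of these repeated without the balance filter. The 72 pairs of libraries of 1 siRNA and treatment differed beyond sampling noise (chi-square per degree of freedom from 2.00). None was therefore taken as 1 library deposited under 2 names, and each counted as a replicate. Whether they came from separate cultures is not shown by this.

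Both procedures were tested on simulated data for siSF3B1 against siNT in DMSO. Over 9991 genes edgeR recovered 96% to 100% of genes changed by 0.5 or 1 on the log2 scale. Over 5000 events limma recovered 84% to 100% of changes of 10 or 20 points that started at a PSI of 2 or 98 with 30 or 80 reads. At a starting PSI of 50 it recovered 16% to 26% of 10-point changes with 80 reads and 0% with 30 reads, so a missed call there does not show equal splicing. The simulated PSI varied by read sampling only, without spread between libraries or siRNAs. Recovery of splicing changes at the spread of the real libraries was therefore not measured.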

Additional observations from a re-analysis of the deposited data

Results flagged for a closer look

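In 60 group values of the members and 120 of their events, the highest or lowest library was compared with the rest of its 8 (gap over range above Dixon's critical value), and 4 and 10 stood out, where chance gives about 1 in 20. In 4OHT siRBM39-08 replicate 4, MBD3 was at 321.1 CPM, CHD3 at 174.3 CPM and MTA2 at 160.2 CPM, each the highest of its group, in the library with 60.9 CPM of epithelial markers. MTA1 was at 139.3 CPM in DMSO siRBM39-06 replicate 1, which had the highest sum of epithelial markers of its group, 21.7 CPM. The part of other cells in these values was not tested.

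Among exons, CHD3 exon 26 was at a PSI of 74.3 in 4OHT siSF3B1-13 replicate 1, MBD2 exon 4 at 87.2 in DMSO siSF3B1-16 replicate 1 and MBD3 exon 5 at 96.9 in DMSO siRBM39-06 replicate 1. Among introns, HDAC1 intron 8 was at 2.39 in DMSO siNT1 replicate 2 and HDAC1 intron 7 at 4.69 in DMSO siNT1 replicate 1. CHD4 intron 25 was at 4.12 in DMSO siRBM39-06 replicate 4 and at 3.93 in 4OHT siRBM39-06 replicate 4. MTA2 intron 8 was at 10.5 in 4OHT siNT1 replicate 4 and at 8.33 in DMSO siRBM39-06 replicate 4, and MTA2 intron 9 at 3.85 in DMSO siNT1 replicate 4.

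The effect of a knockdown differed between 4OHT and DMSO by edgeR's test of the difference for HDAC1 (−0.27), CHD3 (0.42) and MTA1 (−0.37) after siSF3B1 and for HDAC1 (−0.19) after siRBM39, on the log2 scale and as 4OHT minus DMSO.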

How the results depend on the processing

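Under the alternatives, 998 member fold changes kept their direction and side of the threshold, 69 lost and 31 gained a call and 2 reversed, GATAD2A after siRBM39 in DMSO with siRBM39-08 alone (−0.10) and MTA3 after siRBM39 in 4OHT with siRBM39-06 alone (−0.17). Requiring a 2-fold change left 0 members called in each comparison except induction (2). After siRBM39 in 4OHT, siNT2 alone gave 3 in place of 6, where 4122 of 9991 genes were called. For the difference in siSF3B1 effect (3 members), a minimum of 1 count in total gave 6, with 4583 of 17872 genes called. A minimum of 5 counts in every library gave 5 (4445 of 12145 genes). Only the groups compared gave 6 (5607 of 9991 genes), and leaving out 4OHT siRBM39-08 replicate 4 gave 5 (4692 of 9991 genes). For the difference in siRBM39 effect (1 member), only the groups compared gave 2 (1436 of 9991 genes). With siRBM39-06 alone the count was 3 (3706 of 9991 genes) and with siRBM39-08 alone 2 (2079 of 9991 genes). With siNT1 or siNT2 alone the count was 0 (537 and 628 of 9991 genes). Leaving out 1 replicate number gave 3 to 5 members after siRBM39 in 4OHT (3 without replicate 4, where 5399 of 9991 genes were called). The siSF3B1 difference then gave 2 to 5 (5 without replicate 1, with 3110 of 9991 genes). The siRBM39 difference gave 0 to 1 (0 without replicate 3, with 686 of 9991 genes). The fits on single siRNAs, on the groups compared or without a replicate hold fewer samples. Otherwise the cause was not tested.

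Of the event counts, siSF3B1 in DMSO (10) and 4OHT (12) gave 20 and 24 without the balance filter, 4 and 3 at a minimum of 10 points, 30 and 32 with no minimum, and 0 and 0 where PSI had to lie from 1 to 99, which 1 member event did. After siRBM39 in DMSO (1) the same settings gave 3, 0, 3 and 0, siRBM39-06 alone 0 and siRBM39-08 alone 2. In 4OHT (1) they gave 3, 0, 2 and 0, and siRBM39-06 alone or leaving out 4OHT siRBM39-08 replicate 4 gave 0. Leaving out 1 replicate number gave 1 to 2 events after siRBM39 in DMSO (2 without replicate 2) and 0 to 1 in 4OHT (0 without replicate 1 or 4).

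Replicate numbers showed no pairing over the libraries as a whole. Same-numbered libraries of different siRNA or treatment had a median correlation of deviations of 0.012, with a range of −0.91 to 0.81. Of 264 such pairs 84 were over 0.1, and 15 of 48 libraries correlated best with their own number. Pairing in part of the libraries was not tested. With a replicate block, 9, 6, 6, 5 and 6 members were called in the order siSF3B1 in DMSO, siSF3B1 in 4OHT, siRBM39 in DMSO, siRBM39 in 4OHT and induction, and 10, 12, 1, 1 and 0 events. Of 9991 genes, 7219, 7648, 4503, 5518 and 7763 were called with the block in that order. The calls lost were GATAD2A after siSF3B1 in 4OHT (0.11) and MBD3 after siRBM39 in 4OHT (0.37). Events of MTA3 had too few reads to be compared.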
